A study of Mus musculus with 7 samples.

Results

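The cytosolic ribosomal protein genes were examined in mouse ovaries that differed in Abcg5/g8 genotype and in diet. They were taken as the protein coding rows whose symbol starts with Rpl or Rps and a digit, plus Rplp0, Rplp1, Rplp2 and Rpsa. S6 kinase genes (Rps6k), Rps19bp1 and symbols that hold -ps were left out. This gave 85 genes of 34866 in the table, of which 52 belong to the large and 33 to the small subunit.

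RNA of single ovaries from female mice aged 8 to 12 weeks was sequenced in bulk in 7 libraries. The groups were WT mice fed CD, which were fertile (2 libraries), Abcg5/g8 KO mice fed CD, which were infertile (3 libraries), and Abcg5/g8 KO mice fed VOFD, which were fertile (2 libraries). They are called WT CD, KO CD and KO VOFD here. Abcg5 and Abcg8 encode a paired exporter of sterols, and the diets are known here by their abbreviations only. The labels do not give the strain, the form of the deletion or whether the libraries come from separate animals. The p-values therefore cover the spread between these libraries alone, and that spread may be technical. KO CD and KO VOFD share the deletion and differ in diet and in fertility, so those cannot be told apart. WT CD and KO CD share the diet and differ in genotype and in fertility, which cannot be told apart either. The same holds for genotype and diet between WT CD and KO VOFD, which were both fertile.

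Ribosomal proteins coat the ribosomal RNA of the large and small subunit, and each is needed in about equal molar amounts. Their mRNAs are among the most abundant of most cells and carry a stretch of pyrimidines at the 5′ end, the TOP motif, through which growth signals control their translation as a group. In the ovary they are transcribed in all cell types, from oocytes to granulosa and luteal cells. Mammalian genomes hold many processed pseudogenes, which are intron-less copies of these mRNAs pasted elsewhere in the genome, and reads from a gene and a near-identical copy can be hard to assign.

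For 4 genes with a near-identical copy whose TPM differed strongly between libraries, gene and copy are compared first, since the TPM of both are read side by side. Positions are counted from the first base of the coding sequence of the gene, transcripts are those of GENCODE M21 (GRCm38), all are written 5′ to 3′ on the strand of the transcript, and capitals mark the bases that differ. Rpl3 lies on chromosome 15 (chr15:80077791-80091868, minus strand), and its copy Rpl3-ps1 lies on chromosome X (chrX:13202571-13203780, plus strand). They differed at 2 of 1210 aligned bases, C57A and T786C. Positions 27 to 87 show the first of these.
Rpl3: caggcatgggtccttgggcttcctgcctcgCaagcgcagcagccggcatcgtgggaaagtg
Rpl3-ps1: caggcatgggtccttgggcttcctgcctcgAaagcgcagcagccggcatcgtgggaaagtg
Rpl30 (chr15:34440505-34443640, minus strand) and its copy Gm12191 (chr11:49678710-49679057, minus strand) differed at 1 of 348 aligned bases, G96A, shown in positions 66 to 126.
Rpl30: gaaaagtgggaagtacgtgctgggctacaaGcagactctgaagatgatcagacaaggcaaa
Gm12191: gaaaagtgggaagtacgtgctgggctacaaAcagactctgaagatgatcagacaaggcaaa
Rps7 (chr12:28630854-28635953, minus strand) and its copy Gm6472 (chrX:152909505-152910155, minus strand) differed at 3 of 582 aligned bases, T26G, G48A and G123T. Positions 1 to 56 hold the first 2 of them.
Rps7: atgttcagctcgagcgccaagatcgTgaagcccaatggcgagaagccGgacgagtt
Gm6472: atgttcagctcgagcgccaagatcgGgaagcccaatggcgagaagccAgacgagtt
Rps29 (chr12:69157722-69159186, minus strand) and Gm14303 (chr2:172509521-172509691, minus strand) had no difference over 171 aligned bases.

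The 5′ ends of the genes were read from RefSeq's promoter table (GRCm38.p6), which held 65 of the 85 genes. A run that starts with C, continues with C or T only, is at least 5 bases long and begins within 5 bases of the annotated start on the strand of the gene was counted, with no other motif searched. It was found in 30 of the 65 genes (46.2%), against 21.2% of 27025 genes in the table. By subunit it was found in 17 of 40 large and 13 of 25 small subunit genes. The windows below run from 10 bases before to 20 bases from the annotated start, with the run in capitals. They are shown for Rpl13a and Rps27rt, which have the highest mean TPM of each subunit, and for Rps6, the target of S6 kinase.
Rpl13a (chr7:45128726-45128755, minus strand): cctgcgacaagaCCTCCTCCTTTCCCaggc
Rps27rt (chr9:114982720-114982749, minus strand): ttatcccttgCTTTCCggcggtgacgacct
Rps6 (chr4:86857348-86857377, minus strand): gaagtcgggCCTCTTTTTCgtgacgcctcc
A match describes the letters at an annotated start and not the start used in these ovaries.

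Values are in TPM, in which each gene's reads are scaled by transcript length and each library sums to 1000000, so the sequencing depth is unknown. The genes at 1 TPM or more numbered 14267 to 14982 per library, and Pearson correlations of log2(TPM + 1) between libraries of 1 group ran from 0.939 to 0.981. Abcg5 and Abcg8 lay at or below 0.212 TPM in all 7 libraries, WT CD included, so the deletion could not be checked from these data. Mitochondrially encoded genes took 11.7% of the TPM in KO CD 3 and 15.4% to 18.3% in the other 6 libraries. By the sum of each list, markers of the ovary's own cells were present in all groups. No granulosa, luteal, theca or oocyte marker in the lists was under 1 TPM in all libraries, which does not show that each was present in every group.

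The ribosomal protein genes took shares of the TPM that overlapped between the 3 groups, with the lowest mean in KO CD. They held 22.6% and 19.2% of all TPM in WT CD, 17.8%, 20.7% and 17.4% in KO CD, and 20.1% and 19.5% in KO VOFD. WT CD 1 was highest and KO CD 1 and KO CD 3 were lowest, and the ranges of the groups overlapped. The group means were 20.9% ± 2.40 (SD, n = 2), 18.6% ± 1.82 (SD, n = 3) and 19.8% ± 0.428 (SD, n = 2). With the mitochondrially encoded genes left out of the total, the shares were 27.4% and 23.1% in WT CD, 21.5%, 24.5% and 19.7% in KO CD, and 24.1% and 23.8% in KO VOFD. In bulk ovary, fewer cells rich in these mRNAs and less of them per cell cannot be told apart.

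Large and small subunit genes moved together. Summed large over summed small subunit TPM was 1.22 and 1.23 in WT CD, 1.22, 1.21 and 1.19 in KO CD, and 1.21 in both KO VOFD libraries. The group means were 1.22 ± 0.00488 (SD, n = 2) in WT CD, 1.21 ± 0.0164 (SD, n = 3) in KO CD and 1.21 ± 0.00337 (SD, n = 2) in KO VOFD. Their differences were about the spread within KO CD, which overlapped both other groups. KO VOFD lay below WT CD without overlap, by more than the SD of either. KO CD 3 had the lowest ratio.

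**Figure D1:**
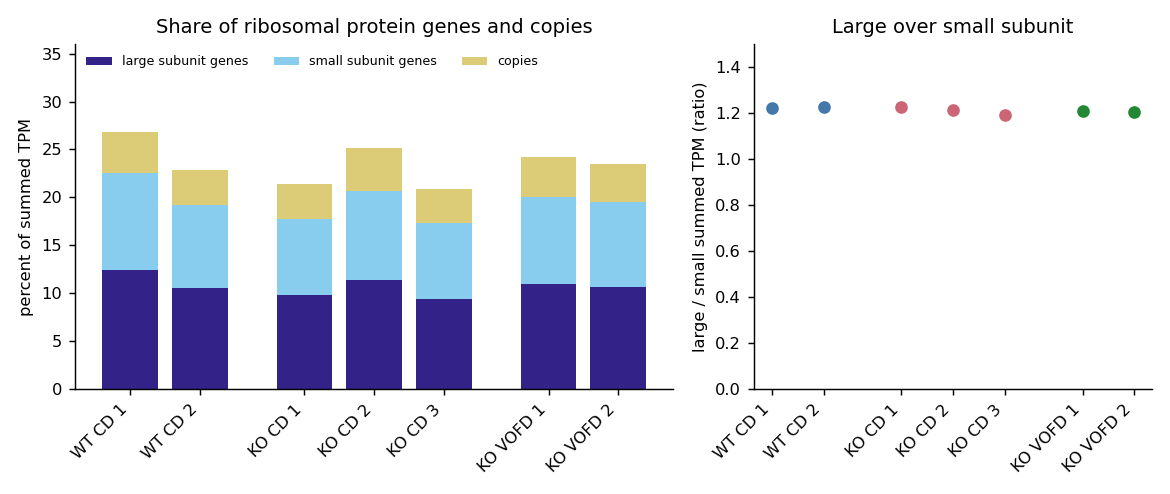
Left, percent of summed TPM held by large subunit genes, small subunit genes and their copies, as stacked bars for each of the 7 libraries. Right, the ratio of summed large to summed small subunit TPM, 1 point a library, which runs from 1.19 to 1.23 while the share of the genes without copies runs from 17.4% to 22.6%.

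The median gene stood at 2094 TPM over the libraries, 66 of the 85 genes had a mean over 1000 TPM and 5 had one over 5000. In every library 57 to 61 of the 100 genes with the highest TPM were ribosomal protein genes. Among the highest large subunit genes by mean were Rpl13a at 8007 TPM and Rplp1 at 6014 TPM. Rpl13a encodes a large subunit protein that in human cells also joins a translational silencing complex, and Rplp1 encodes a protein of the stalk that recruits elongation factors. Among the highest small subunit genes were Rps27rt at 6985 TPM and Rps14 at 6138 TPM. Rps27rt is an intron-less relative of Rps27, and RPS14 is the gene whose loss underlies the anaemia of human 5q- syndrome. In this order Rps14 and Rplp1 are not separated beyond their spread, with 4079 to 8222 TPM for the first and 5492 to 6822 TPM for the second over the 7 libraries.

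At the low end, 3 genes averaged under 5 TPM. Rpl39l and Rpl10l, which are known for expression in testis, averaged 3.22 and 0.466 TPM, and Rpl3l, known from striated muscle, averaged 0.156 TPM. Rpl10l and Rpl3l did not pass the filter for testing, which asks for 1 TPM in at least 2 libraries, so 83 of the 85 genes (50 large, 33 small) were tested. Among the 82 genes above 5 TPM, the highest library exceeded the lowest by a median of 1.36-fold, by under 1.5-fold for 61 genes and by 2-fold or more for 7.

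**Figure D2:**
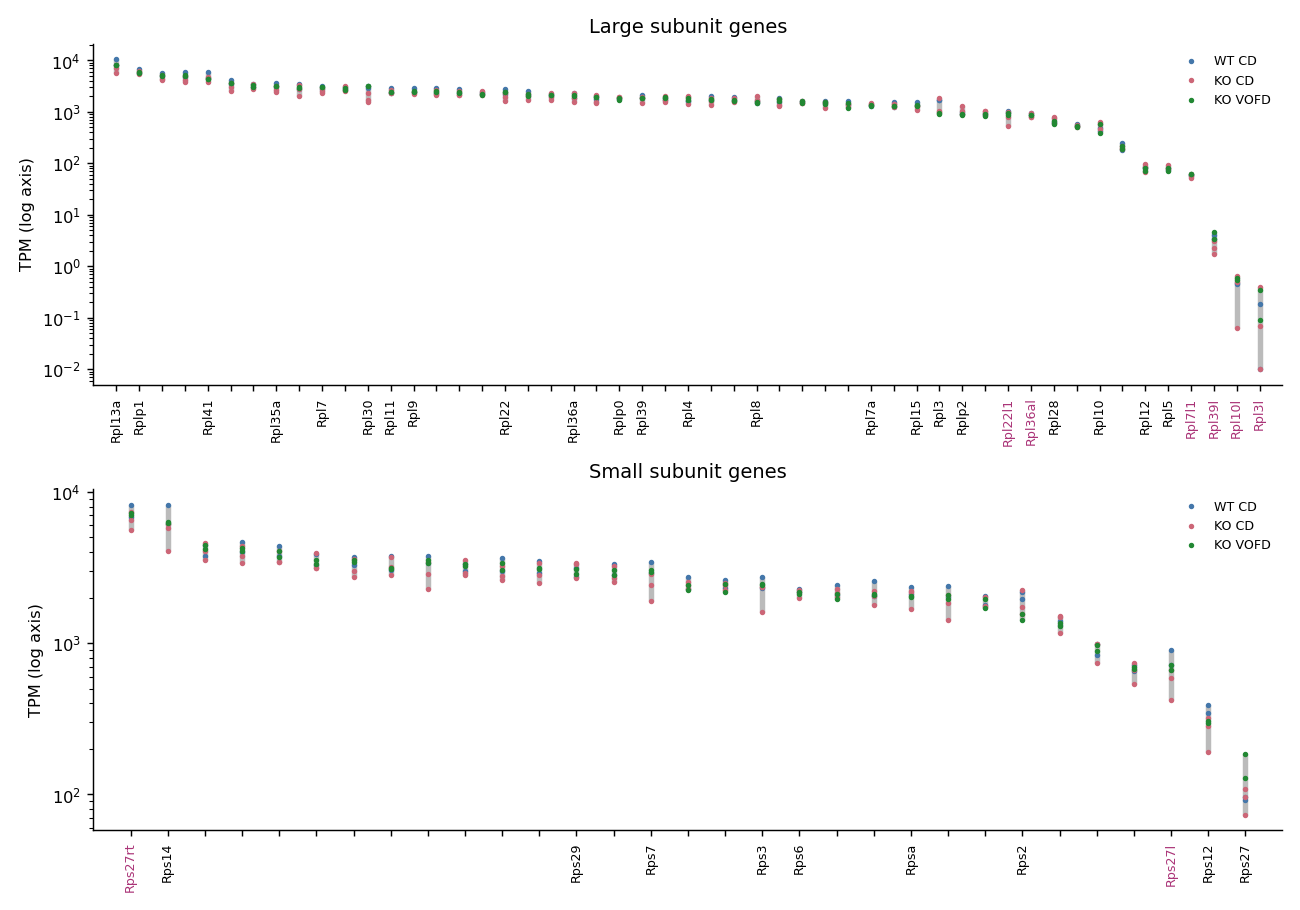
TPM of the ribosomal protein genes on a log axis, ordered by mean and named where the text describes them, with 1 point a library coloured by group and a grey bar from lowest to highest; 0 is drawn at the bottom of the axis, and names of paralogs are in purple. Most genes lie between 1000 and 5000 TPM with narrow ranges, and Rpl39l, Rpl10l and Rpl3l lie far below the rest.

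KO CD ovaries were compared with WT CD ovaries, which share the CD diet and differ in genotype and in fertility. No ribosomal protein gene passed the test in either direction, with limma on log2(TPM + 1) over all 7 libraries and Benjamini-Hochberg (BH) adjustment over 15487 genes at a threshold of 0.05. Over all genes 0.11% were called, 0.0581% as higher and 0.0517% as lower in KO CD. At an unadjusted p under 0.05 there were 2 of 83 genes (2.41%), against 10.3% of all genes. Most of the genes nevertheless had a negative difference. The log2 fold change was below 0 for 71 of 83 (85.5%), against 27.7% of all genes tested, and above 0 for 12, against 72.3%. It had a median of -0.12 for the large subunit, -0.14 for the small subunit and 0.19 for all genes. With libraries scaled by median-of-ratios factors, the median of all genes was 0.0034 and the subunit medians were -0.33 and -0.35, so their distance from the median of all genes was about the same. Under that scaling 82 genes were below 0 and 1 above.

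The size of these medians rested on single libraries. Without WT CD 1 they were -0.033 and -0.022, and without WT CD 2 they were -0.27 and -0.24. Without KO CD 1, 2 or 3 they were -0.080 and -0.075, -0.20 and -0.22, and -0.069 and -0.11. The median of all genes moved too, to 0.087 without WT CD 1 and 0.30 without WT CD 2. Without KO CD 1, 2 or 3 it was 0.24, 0.22 and 0.094. The ribosomal protein genes above 0 numbered 35 without WT CD 1 and 23 without KO CD 1, in place of 12.

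Markers of several other cell types also stood at different levels in these groups. Signs of their fold changes are on the log2 scale and, unless named otherwise, for KO CD against WT CD. The summed TPM of 9 adipocyte markers was 301 to 896 in WT CD and 1632 to 3529 in KO CD, with a positive fold change for 7 of 9 (72.3% of all genes), and it was 662 to 1473 in KO VOFD. That of 6 erythroid markers was 440.1 to 835 in WT CD and 1268 to 3050.0 in KO CD, with a positive fold change for all 5 tested, and it was 689 to 741 in KO VOFD. That of 8 luteal markers was 7221 to 9509 in WT CD and 4645 to 8586 in KO CD, with a negative fold change for all 8 (27.7% of all genes), of which 2 were called as lower (0.0517% of all genes), and it was 7239 to 8684 in KO VOFD. That of 9 macrophage markers was 478 to 524 in WT CD, 546 to 814 in KO CD and 547 to 644 in KO VOFD, with a positive fold change for all 9. That of 9 lymphocyte markers was 16.6 to 18.5 in WT CD, 30.9 to 125 in KO CD and 15.7 to 16.1 in KO VOFD, with a positive fold change for all 5 tested. Only luteal markers were called among these lists, and no adipocyte, erythroid, luteal or macrophage marker stayed under 1 TPM in all libraries. The luteal sum does not show how far single markers moved. Their log2 fold changes ran from -5.7 to -0.12 (median -1.6), and 4 of 8 (50%) were lower without overlap, against 5.95% of all genes. In KO VOFD against KO CD they ran from 0.071 to 6.2, with 2 called as higher (0.0387% of all genes). The part of the cell types in the ribosomal protein values was not tested.

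**Figure D3:**
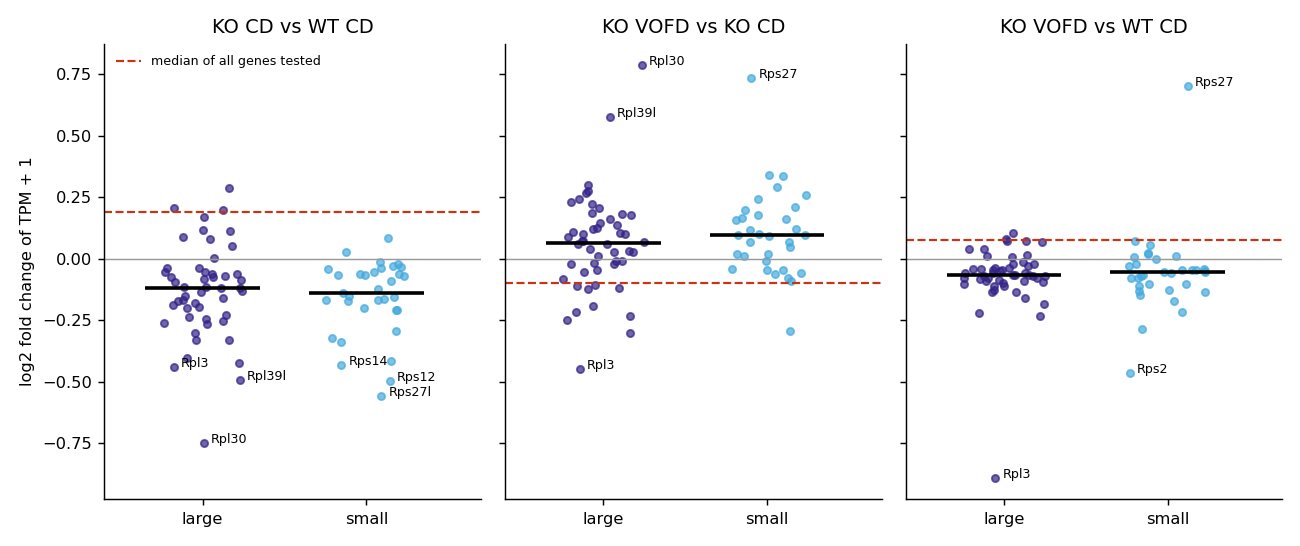
Log2 fold change of TPM + 1 for each of the 83 tested genes in the 3 comparisons, with large and small subunit genes side by side; black bars are the medians of the subunits and the dashed line is the median of all genes tested. The medians of both subunits lie close together in each comparison, and the genes furthest from them are Rpl30, Rpl3, Rps27 and Rpl39l.

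Rpl30 had the lowest value. It encodes a small large-subunit protein that in yeast controls the splicing of its own transcript. It stood at 3178 and 2952 TPM in WT CD, 1686, 2287 and 1563 TPM in KO CD, and 3168 and 3124 TPM in KO VOFD. All KO CD libraries were below all others. The log2 difference of KO CD from WT CD was -0.75 ± 0.18 (SE; limma, BH-adjusted p = 0.255), and that of KO VOFD from KO CD was 0.79 ± 0.18 (SE; limma, BH-adjusted p = 0.305).

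Among the other genes, Rps27l and Rps12 had the lowest values of the small subunit. Rps27l, a paralog of Rps27 induced by p53 in human cells, stood at 900.3 and 721 TPM in WT CD, 660.3, 587 and 424 TPM in KO CD, and 667 and 722 TPM in KO VOFD. KO CD lay below WT CD without overlap, by -0.56 ± 0.21 (SE; limma, BH-adjusted p = 0.433). Rps12 stood at 391 and 344 TPM in WT CD, 283, 322 and 192 TPM in KO CD, and 295 and 307 TPM in KO VOFD. It too was lower in all KO CD than in all WT CD libraries, by -0.50 ± 0.22 (SE; limma, BH-adjusted p = 0.487).

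In total 8 of 83 genes (9.64%) were lower in every KO CD than in every WT CD library, against 5.95% of all genes. They were Rpl9, Rpl13a, Rpl15, Rpl30, Rpl39l, Rps7, Rps12 and Rps27l. Rpl13a stood at 10461 and 8354 TPM in WT CD and at 7204, 8326 and 5645 TPM in KO CD (log2 difference -0.42 ± 0.19 SE; limma, BH-adjusted p = 0.492). The remaining genes at the low end overlapped between groups, such as Rps14 with 8222 and 6116 TPM in WT CD and 5792, 6159 and 4079 TPM in KO CD.

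One gene, Rplp0, was higher in every KO CD library, against 20.6% of all genes. Rplp0 encodes the base of the stalk and stood at 1864 and 1816 TPM in WT CD and 1955, 1865 and 1909.6 TPM in KO CD, a log2 difference of 0.053 ± 0.13 (SE; limma, BH-adjusted p = 0.865). The highest log2 fold changes were those of Rpl10 (0.29), Rpl28 (0.21), Rplp2 (0.20) and Rpl8 (0.17), with adjusted p of 0.584 to 0.634 by limma. For Rpl10 the copies held 84.3% of the summed TPM of gene and copies, and with them added its difference was 0.017. Rpl10 encodes a protein that joins the large subunit late in assembly, and Rplp2 a stalk protein. In each of Rpl10, Rplp2 and Rpl8, KO CD 3 was the highest of the 7 libraries, with 639, 1326 and 2042 TPM.

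KO VOFD ovaries were compared with KO CD ovaries, which share the deletion and differ in diet and in fertility. This comparison shares the KO CD libraries with the one above. No ribosomal protein gene passed the test (limma, BH over all genes), against 0.0452% of all genes (0.0387% as higher and 0.00646% as lower), and 2 of 83 were at an unadjusted p under 0.05, against 7.94%. The log2 fold change was above 0 for 56 of 83 genes (67.5%), against 36.7% of all genes, and below 0 for 27, against 63.3%. The medians were 0.065 for the large and 0.096 for the small subunit, with -0.10 for all genes, and 0.18 and 0.21 with median-of-ratios scaling, which brought all genes to 0.0019 and left 9 genes below 0. Without KO CD 1, 2 or 3 the medians were 0.028 and 0.054, 0.14 and 0.19, and 0.0073 and 0.045. Without KO VOFD 1 they were 0.038 and 0.080. The median of all genes was -0.14, -0.14 and -0.017 without KO CD 1, 2 or 3, and -0.12 without KO VOFD 1. Without KO CD 3 the median of the ribosomal protein genes lay 0.037 above that of all genes, against 0.17 with all libraries.

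In this comparison 12 of 83 genes (14.5%) were higher in every KO VOFD than in every KO CD library, against 8.68% of all genes. They were Rpl7, Rpl7l1, Rpl9, Rpl22, Rpl30, Rpl35a, Rpl39l, Rps3, Rps7, Rps14, Rps27 and Rps27l. Another 5 (Rpl3, Rpl7a, Rpl8, Rplp2 and Rps2) were lower in every KO VOFD library, 6.02% against 17.9% of all genes. Rps3, which lines the entry of the mRNA channel, stood at 2337, 2346 and 1606 TPM in KO CD and at 2460.1 and 2425 TPM in KO VOFD. Rps27, a zinc finger protein of the small subunit, stood at 96.8, 73.6 and 108 TPM in KO CD, 128 and 184 TPM in KO VOFD, and 96.0 and 91.9 TPM in WT CD. KO VOFD was highest for Rps27, with log2 differences of 0.74 ± 0.22 from KO CD (SE; limma, BH-adjusted p = 0.484) and 0.70 ± 0.24 from WT CD (SE; limma, BH-adjusted p = 1).

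The fertile KO VOFD ovaries were compared with the fertile WT CD ovaries. Both sets of libraries also enter the comparisons above. No ribosomal protein gene passed the test (limma, BH over all genes), against 0.0129% of all genes, all of them higher, and 3 of 83 were at an unadjusted p under 0.05, against 1.99%. These were Rpl3, Rps2 and Rps27. The medians were -0.065 for the large and -0.055 for the small subunit, with 0.078 for all genes, and 65 of 83 genes (78.3%) were below 0, against 34.6%. Without WT CD 1 the medians turned to 0.025 and 0.043, with 60 genes above 0 in place of 18, and without WT CD 2 both were -0.17, with 4 above. The median of all genes was -0.022 without WT CD 1 and 0.19 without WT CD 2. Without WT CD 1 the subunit medians thus lay above that of all genes and no longer below it. With median-of-ratios scaling the subunit medians were -0.16 and -0.15, with 3 above. Without KO VOFD 1 they were -0.10 and -0.086, and without KO VOFD 2 -0.034 and -0.025.

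Of the 83 genes 10 (12%) were lower in every KO VOFD than in every WT CD library, against 9.88% of all genes, and 3 (Rpl4, Rpl7l1 and Rps27) were higher, against 24.6%. Those lower included Rpl3, Rpl12, Rpl13a, Rpl15, Rpl41, Rplp2, Rps2, Rps12 and Rpsa. The lowest was Rpl3, a core protein near the peptidyl transferase centre that binds early in assembly. It stood at 1734 and 1669.5 TPM in WT CD, 995, 1059.8 and 1861 TPM in KO CD, and 934 and 898 TPM in KO VOFD. KO CD 3 lay with WT CD, and the other 2 KO CD libraries lay with KO VOFD. The difference of KO VOFD from WT CD was -0.89 ± 0.28 on the log2 scale (SE; limma, BH-adjusted p = 1), and it was called, as the only member, where only these 2 groups were fitted (limma, BH-adjusted p = 0.0412).

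For some of these genes a near-identical processed copy had TPM that went the other way. Of the 7 genes that varied 2-fold or more, adding the copies brought Rpl3 to 1.17-fold, Rps12 to 1.25-fold and Rpl30 to 1.52-fold, while Rpl22l1 stayed at 1.99-fold, Rps14 at 2.02-fold, Rps27l at 2.12-fold and Rps27 at 2.40-fold. For Rps27 this leaves out Rps27rt, which is identical to it over 341 aligned bases. Rps27rt counts as a gene of the set and not as a copy, so it was not added. A BLAST search of 12365 genes annotated as pseudogenes or with -ps in the symbol gave 1539 copies with at least 80% identity over at least 50% of their length to 83 of the 85 genes. Of these copies 28 reached 30 TPM in a library, of which 2 (Rps12-ps3 and Rpl10-ps3) are annotated as protein coding and the rest as processed pseudogenes, and 7 of the 28 varied by over 2 on the log2(TPM + 1) scale. All copies together held 3.51% to 4.47% of the TPM of a library.

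Rpl3-ps1 stood at 1.06 and 1.13 TPM in WT CD, 836, 896 and 2.91 TPM in KO CD, and 852 and 835 TPM in KO VOFD. It was near 0 in the 3 libraries with high Rpl3 and between 835 and 896 TPM in the 4 libraries with low Rpl3. The sum of Rpl3 and all its copies was 1737 and 1673 TPM in WT CD, 1833, 1958 and 1865 TPM in KO CD, and 1788 and 1734 TPM in KO VOFD, a range of 1.17-fold, against 2.07-fold for the gene alone. With copies added, the log2 difference of KO VOFD from WT CD was 0.047 and that of KO CD from WT CD was 0.145, in place of -0.89 and -0.44.

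Gm12191, the copy of Rpl30, stood at 0.013 and 0 TPM in WT CD, 969, 1343 and 817 TPM in KO CD, and 2.02 and 1.64e-04 TPM in KO VOFD. It was the one copy of the 28 that passed the test in any comparison, and it did so for KO CD against WT CD (limma, BH-adjusted p = 3.61e-05) and for KO VOFD against KO CD (limma, BH-adjusted p = 1.56e-04). No fold is given, since it was listed at 0 in 1 WT CD library and near 0 in the rest. The sum of Rpl30 and its copies was 3184 and 2958 TPM in WT CD, 2661, 3645 and 2396 TPM in KO CD, and 3178 and 3127 TPM in KO VOFD. The groups overlapped in this sum, and the log2 differences fell to -0.11 for KO CD against WT CD and 0.14 for KO VOFD against KO CD.

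Rps2, which encodes a protein of the mRNA entry site, also has copies that were high in some libraries. The gene stood at 2168 and 1958 TPM in WT CD, 2252, 1566 and 1742 TPM in KO CD, and 1426 and 1563 TPM in KO VOFD. Its copy Rps2-ps10 on chromosome 18 stood at 6.32 and 5.74 TPM in WT CD, 557, 424 and 14.4 TPM in KO CD, and 385 and 448 TPM in KO VOFD. A second copy, Rps2-ps6 on chromosome 14, was highest in the same 4 libraries, with 65.9 and 45.9 TPM in KO CD 1 and KO CD 2, 36.8 and 47.2 TPM in KO VOFD, and at most 1.11 TPM in the others. Gene and copy were not opposed in KO CD 1, which was highest for both Rps2 and Rps2-ps10. Among the other libraries they were opposed. There Rps2 was at 1742 TPM or more where Rps2-ps10 was at 14.4 TPM or less. It was at 1566 TPM or less where Rps2-ps10 was at 385 TPM or more. Adding the copies brought the log2 difference of KO VOFD from WT CD from -0.46 to -0.075, but widened the range over the libraries from 1.58-fold to 1.65-fold.

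KO CD 3 stood alone for another pair of copies. Gm6472, the copy of Rps7, was at 386 TPM in KO CD 3 and between 2.35 and 7.88 TPM in the other 6 libraries. Rps7 itself was at its lowest there, with 3461 and 2889.8 TPM in WT CD, 2426, 2883 and 1907 TPM in KO CD, and 3037 and 2953 TPM in KO VOFD. Gm14303, identical to the coding part of Rps29, was listed at 0 in KO CD 3 and lay between 572 and 937 TPM in the others, while Rps29 was highest in KO CD 3 with 3394 TPM against 2705 to 3329.9 TPM.

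**Figure D4:**
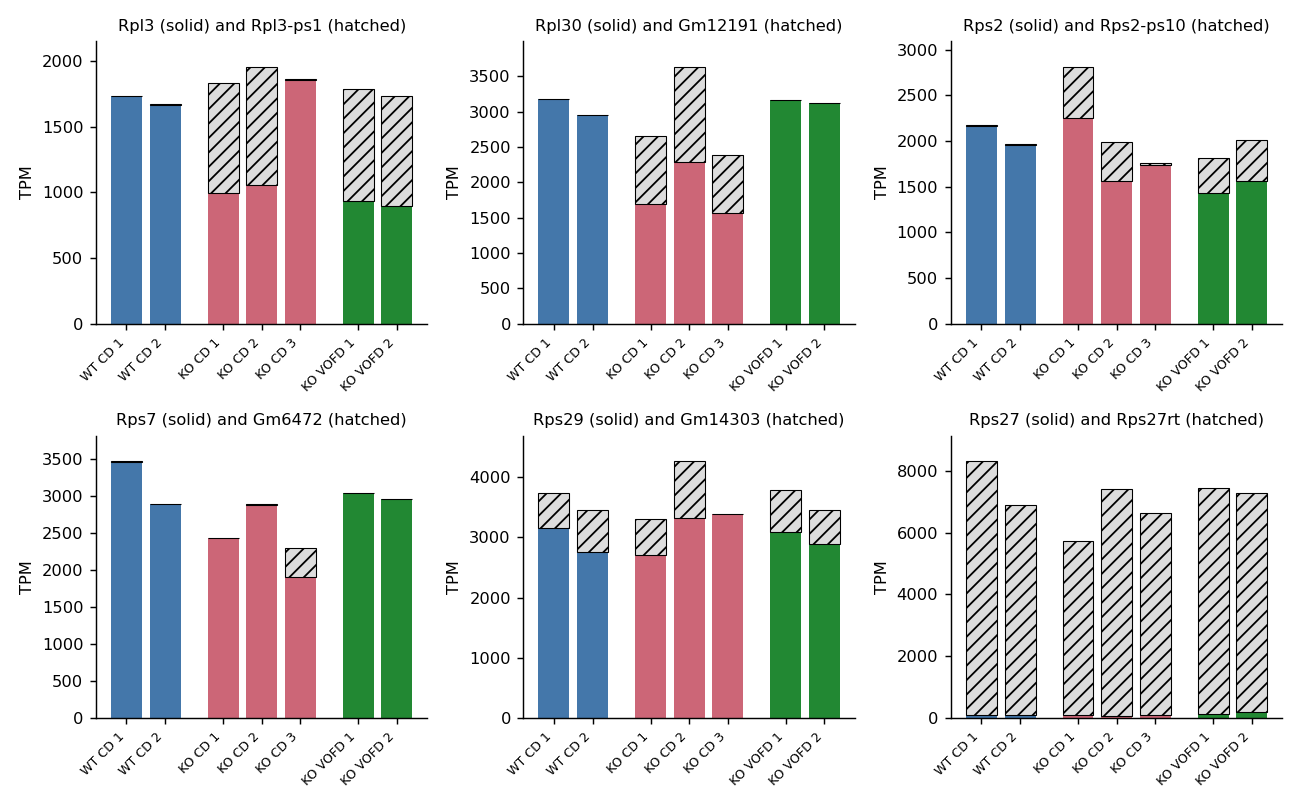
TPM of 5 ribosomal protein genes (solid, coloured by group) with a processed copy stacked on top (hatched), and of Rps27 with Rps27rt, for each of the 7 libraries. For Rpl3 and Rpl30 the stacked height varies less between groups than the solid part, Gm12191 is visible at this scale in KO CD only, and Rps27rt makes up nearly all of its stack.

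For 11 genes the copies held more than 50% of the summed TPM of gene and copies. The highest shares were those of Rpl12 (97.4%), Rpl5 (97.2%) and Rps12 (93.5%). Rpl5, which with Rpl11 and 5S rRNA binds the p53 regulator Mdm2, was listed at 70.9 to 92.0 TPM, and its identical copy Gm15500 at 2084 to 3011 TPM. Rps12 was listed at 192 to 391 TPM, and its identical copy Rps12-ps3, itself annotated as protein coding, at 3989.8 to 4962 TPM. Levels of these genes by themselves are therefore uncertain, as is the order of the genes by level. For Rps12 the log2 difference of KO CD from WT CD was -0.11 with copies added, against -0.50 for the gene alone.

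With all copies added to their gene, no member was called in any comparison by limma with BH adjustment, and 1 of 83 was at an unadjusted p under 0.05 in each. The medians were then -0.12 and -0.11 for KO CD against WT CD (large and small subunit), 0.084 and 0.072 for KO VOFD against KO CD, and -0.052 and -0.055 for KO VOFD against WT CD. The medians of the gene set thus moved little, while values of several genes moved by more than 0.2. Among these were Rpl3, Rpl30, Rps2, Rps12 and Rpl10, and the list is not complete. Rpl10 went from -0.22 to 0.082 in KO VOFD against KO CD. Rpl5 and Rpl12 were each at -0.12 in that comparison, and their main copies Gm15500 and Gm10275 were at 0.12 and 0.13.

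KO CD 3 differed from the other libraries in the balance between the members. The SD of the members about the median of their library, on the log2(TPM + 1) scale after subtracting each gene's mean, was 0.123 and 0.0927 in WT CD, 0.137, 0.112 and 0.255 in KO CD, and 0.101 and 0.150 in KO VOFD. In KO CD 3, 22 genes lay at least 0.3 from the library's median, 13 below and 9 above, against 1 to 5 genes in each of the other 6. Those furthest below were Rpl22l1 (-0.57), Rpl30 (-0.53), Rps12 (-0.50) and Rps27l (-0.49), and those furthest above were Rpl3 (0.71), Rplp2 (0.56), Rpl10 (0.47) and Rpl8 (0.45). With copies added the SD in KO CD 3 was 0.228. Both subunits had genes on either side. KO CD 3 also had the lowest share of mitochondrially encoded RNA, 11.7%, and the highest summed TPM of 5 oviduct epithelium markers, 378 against 5.34 to 57.0 in the other 6 libraries. Across the 83 genes, Spearman's correlation of the deviation with mRNA length was -0.309 and 0.0637 in WT CD, 0.0554, 0.0117 and 0.288 in KO CD, and -0.0429 and -0.257 in KO VOFD, so it was highest in KO CD 3 and lowest in WT CD 1. These values share genes and libraries with the result, and genes are not independent replicates. The part of these measures in the result was not tested.

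**Figure D5:**
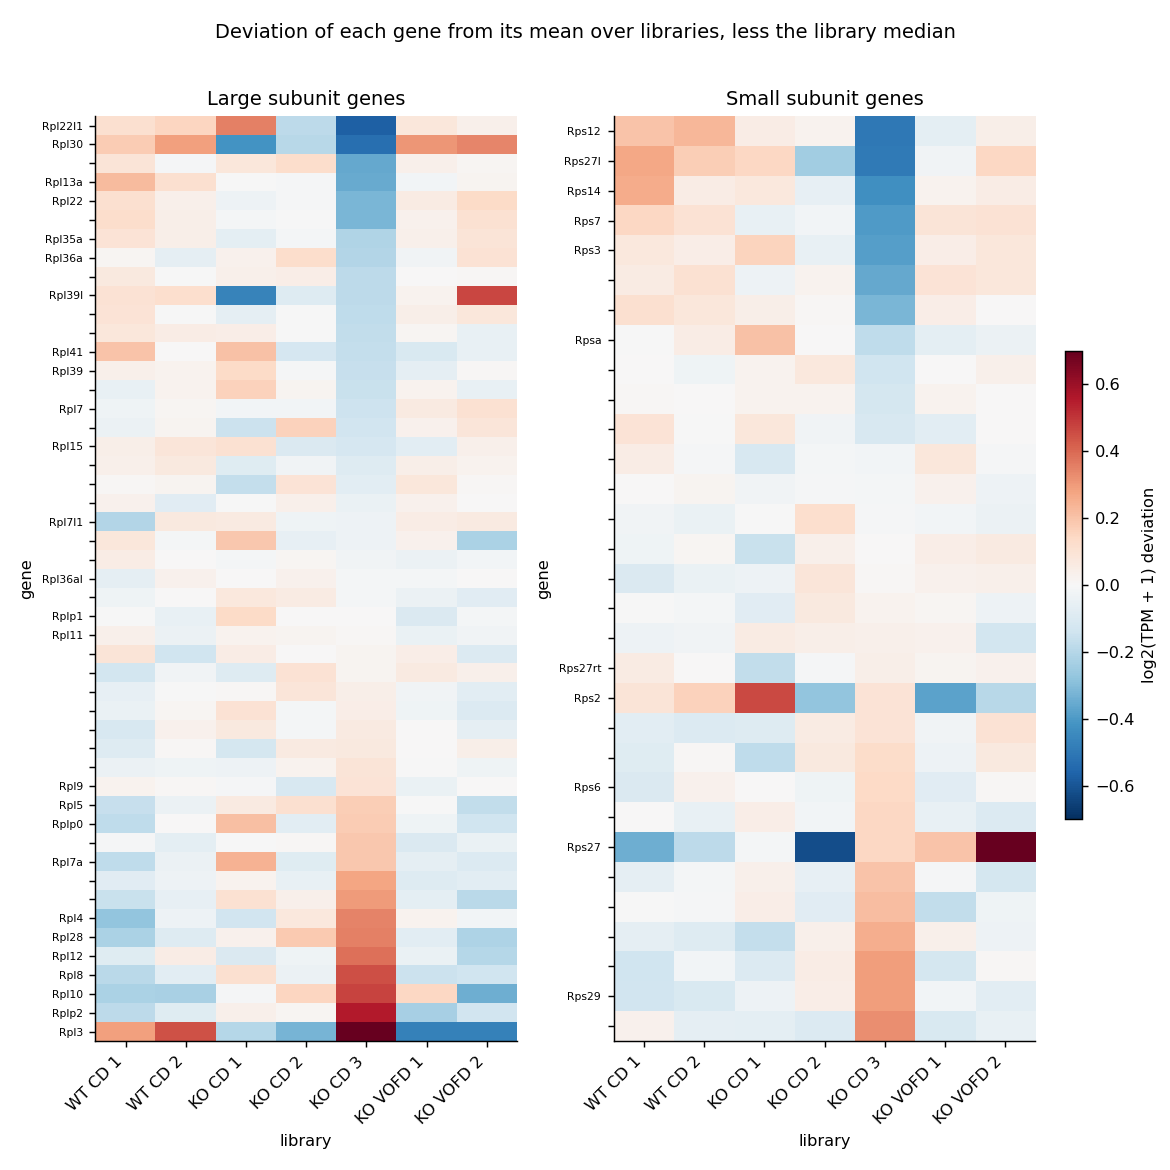
Deviation of tested genes from their mean over the 7 libraries, less the median deviation of the library, in log2(TPM + 1), with the genes of each subunit in rows ordered by KO CD 3, named where the text describes them, and values beyond the colour scale drawn at its ends. KO CD 3 holds most of the strong colours, Rpl3 is high in WT CD and KO CD 3, and Rpl30 is low in all 3 KO CD libraries.

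Paralogs were read as a share of the summed TPM of the pair. Rpl22l1 encodes a paralog of Rpl22, and over their aligned part the mRNAs were 75.9% identical. It made up 28.0% and 29.6% of the pair in WT CD, 33.7%, 25.6% and 24.6% in KO CD, and 28.3% and 26.6% in KO VOFD. The KO CD libraries spanned the range of the other groups. Rpl36al made up 28.7% to 33.0% of its pair with Rpl36a over the 7 libraries, and Rpl7l1 made up 1.81% to 2.19% of its pair with Rpl7.

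Rpl39l held 0.0933% to 0.253% of its pair with Rpl39. It stood at 4.03 and 3.38 TPM in WT CD, 1.72, 3.10 and 2.31 TPM in KO CD, and 3.33 and 4.69 TPM in KO VOFD, so KO CD was lowest without overlap in both comparisons that hold it (log2 differences -0.49 ± 0.27 and 0.58 ± 0.27, SE; limma, BH-adjusted p = 0.528 and 0.642). Rps27 and Rps27rt were identical over 341 aligned bases, and Rps27rt held 97.5% to 99.0% of the pair, so the low level of Rps27 and its difference in KO VOFD are uncertain. Rps27l shared 79.9% of 224 aligned bases with Rps27. A stretch of both shows how far a separate paralog differs, in contrast to the copies, with capitals at the bases that differ in coding positions 36 to 95 of Rps27.
Rps27: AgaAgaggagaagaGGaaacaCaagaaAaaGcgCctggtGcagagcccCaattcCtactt
Rps27l: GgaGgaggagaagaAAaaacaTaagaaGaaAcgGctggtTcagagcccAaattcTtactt

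Fau and Rack1 encode further ribosomal proteins under other symbols, the first as a fusion with a ubiquitin-like protein. Fau ran from 203 to 329 TPM, highest in KO CD 3, and Rack1 from 1424 to 1706 TPM, highest in WT CD 1. Neither passed the test in any comparison (limma, BH over all genes).

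The genes around the ribosome were read from lists. None of 38 translation factors, 49 ribosome biogenesis genes, 78 mitochondrial ribosomal protein genes or 16 genes that control TOP mRNAs and S6 kinase passed the test in any comparison, by limma with BH adjustment, where 0.11%, 0.0452% and 0.0129% of all genes did. For KO CD against WT CD the medians of these lists were 0.14, 0.13, -0.017 and 0.29, with 0.19 for all genes, and 5, 1, 2 and 1 members were at an unadjusted p under 0.05, against 10.3% of all genes. For KO VOFD against KO CD they were -0.10, -0.18, -0.096 and -0.34, with -0.10 for all genes, and 1, 2, 2 and 0 members were at that p, against 7.94%. For KO VOFD against WT CD they were -0.039, -0.011, -0.056 and 0.0096, with 0.078 for all genes, and none was, against 1.99%. In KO CD against WT CD 28 of the 38 translation factors (73.7%) were above 0, against 72.3% of all genes. Without overlap 7 were higher (18.4%, against 20.6%) and 5 lower (13.2%, against 5.95%). The 4 of this list with the smallest p were Eef1e1 (-0.58), Eif3e (-0.52), Eif3m (-0.38) and Pabpc4 (0.69) (limma, BH-adjusted p of 0.354 to 0.477). Eif3e and Eif3m encode subunits of initiation factor eIF3, and Pabpc4 a poly(A) binding protein.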

How the data were processed

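Bulk RNA-seq of mouse ovary in 7 libraries was analysed. The authors deposited transcript abundances per gene in TPM for all libraries together. The submitters' processing notes name GRCm38 as build. The sources used here name no aligner, counting tool, annotation release or strand setting, so reads of overlapping or near-identical genes cannot be separated with certainty. No column of the table was left unmapped. TPM keeps no depth, so no counting interval was computed.

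Symbols, coordinates and transcripts came from GENCODE M21 (34652 of 34866 identifiers). Genes with at least 1 TPM in at least 2 libraries (15487) were fitted on log2(TPM + 1), a scale that understates changes of low genes. The fit was limma 3.58.1 in R 4.3.3, with 3 group means, an intensity trend, 4 residual degrees of freedom, 2-sided tests and BH adjustment. A simulation with added changes was run for KO CD against WT CD only, with independent normal errors. Its outcome is not given here, so the power to find small changes is not stated. Medians and counts over lists carry no test. Alternatives were another pseudocount (0.1), no filter, median-of-ratios scaling, no mitochondrially encoded genes, no trend, a fit of the 2 groups alone, a replicate block, copies added to their gene, and each library left out. Pseudogene copies were matched with BLAST+ 2.17.0 (megablast, E-value up to 1e-10) and aligned with Biopython 1.88. Python 3.11.15 with pandas 2.3.3, numpy 2.4.6 and matplotlib 3.10.9 was used.

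Named members were, per comparison, the 5 highest and 5 lowest fold changes of each subunit, the 3 highest levels of each subunit and all paralog pairs, with Fau and Rack1, and some items that this rule covers are not reported here. From other lists up to 4 genes by smallest p could be named. Members with non-overlapping groups, and the genes Rpl5, Rpl11, Rpl12, Rps3 and Rps6 where no rule holds them, were named after their values were seen. The members and lists were chosen with earlier results of these data known.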

Additional observations from a re-analysis of the deposited data

How the results depend on the processing

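Depth is unknown for TPM, so what it limits could not be computed, and 2 or 3 libraries a group limit the precision. The count of members called stayed at 0 in each comparison under all alternatives run, except for 1 (Rpl3) in KO VOFD against WT CD where only the 2 groups compared were fitted. The count of all genes called moved more. For KO CD against WT CD it was 17, and 3 with no filter on low values. For KO VOFD against KO CD it was 7, and 4 with a pseudocount of 0.1 and with only the 2 groups compared. For KO VOFD against WT CD it was 2, and 7 with a pseudocount of 0.1, 5 with no filter, 5 without an intensity trend and 21 with only the 2 groups compared. Leaving out 1 library gave 4 to 174, 3 to 104 and 2 to 14 genes. The highest counts for the comparisons with KO CD came without KO CD 1, and for KO VOFD against WT CD without KO CD 3.

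Deviations of same-numbered libraries from their group means had correlations of -0.186 to 0.0458. In a group of 2 libraries these deviations mirror each other, so the values cannot show whether the numbers pair the samples. With the replicate number as a block, 27, 7 and 12 genes were called and 0 members. KO CD 3 is the only library with replicate number 3, so the block takes it up fully and it does not enter the group differences. The subunit medians under the block were those without KO CD 3, -0.069 and -0.11 for KO CD against WT CD. For KO VOFD against KO CD they were 0.0073 and 0.045. For the group differences the block is therefore no alternative separate from leaving out KO CD 3. Under the block the log2 difference of Rps13 was -0.040 in KO CD against WT CD, and in KO VOFD against KO CD that of Rps13 was 0.011, with signs opposite to the values without it.

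Median-of-ratios scaling moved the subunit medians of KO CD against WT CD to -0.33 and -0.35, and 1 library left out gave -0.27 to -0.033 for the large subunit. Summed TPM of the members was 208976, 186167 and 197822 in WT CD, KO CD and KO VOFD. It was 252067, 218746 and 239872 without mitochondrially encoded genes, and 248406, 224851 and 238436 with copies added. With copies added the ratio of large to small was 1.29 in all 3 groups.

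Signs of small differences turned with the scaling. With median-of-ratios factors the log2 differences of KO CD from WT CD were -0.094 for Rpl14, -0.0036 for Rpl28, -0.042 for Rpl8, -0.014 for Rplp2, -0.18 for Rps13 and -0.13 for Rps29. Those of KO VOFD from KO CD were 0.059 for Rps13, 0.051 for Rps29 and 0.037 for Rps9. Those of KO VOFD from WT CD were -0.023 for Rpl10, -0.026 for Rpl23, -0.022 for Rpl7l1, -0.070 for Rps20, -0.021 for Rps24, -0.075 for Rps29 and -0.040 for Rps4x. Without mitochondrially encoded genes Rps13 was at -0.012 in KO CD against WT CD. With copies added, Rpl3 was at 0.145 in KO CD against WT CD and 0.047 in KO VOFD against WT CD, and Rpl10 was at 0.082 in KO VOFD against KO CD.

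Leaving out 1 library turned further signs. For KO CD against WT CD the ranges were -0.040 to 0.15 for Rps13, -0.15 to 0.12 for Rps20, -0.15 to 0.091 for Rps24 and -0.012 to 0.19 for Rps29. For KO VOFD against KO CD they were -0.49 to 0.052 for Rpl10 and -0.18 to 0.011 for Rps13. For KO VOFD against WT CD they were -0.20 to 0.34 for Rpl10, -0.11 to 0.28 for Rpl39l, -0.38 to 0.042 for Rps14, -0.10 to 0.15 for Rps20, -0.046 to 0.19 for Rps24, -0.076 to 0.12 for Rps29 and -0.026 to 0.14 for Rps4x. The cause of these shifts was not tested. Gm12191 kept its call in both comparisons under every alternative that keeps it apart from Rpl30 (limma, BH-adjusted p up to 0.0159).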
